A study of Mus musculus with 5 samples.

Results

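Complement genes were read in the esophagus of mice that carry a doxycycline-inducible IL-13 transgene. The set was a fixed list of 34 genes for components, regulators and receptors of the complement system. Its members were taken as all probe sets annotated with that one symbol on the Affymetrix Mouse Genome 430 2.0 array, a platform of short oligonucleotide probes. This gave 54 of the 45101 probe sets, for 30 of the 34 genes. No single-symbol probe set is listed for C3, C7 and Cfd in the annotation used here, and C4b is listed only together with C4a, so these 4 genes have no value below.

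All arrays came from CC10-IL-13 transgenic mice on the FVB/N background, aged 3 to 4 months, which carry the CC10-rtta activator and the teton-IL-13 responder transgenes in both groups. The CC10 promoter is known for its activity in airway club cells. The Dox group (n = 3 arrays) was fed doxycycline and the NoDox group (n = 2 arrays) was fed without it, so the drug and the induced transgene cannot be told apart in this comparison. FVB/N is known as a strain with a defective gene for complement C5, which both groups share. Nothing in the labels ties an array to an animal of its own, and the spread behind each p-value may therefore be technical.

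Complement is a cascade of plasma and cell-surface proteins that marks targets for uptake and can lyse membranes. The classical pathway starts with C1q bound to antibody, the lectin pathway with mannose-binding lectins or ficolins bound to sugars, and the alternative pathway turns over on its own and is stabilised by properdin. All lead to cleavage of C3 and C5, release of the anaphylatoxins and assembly of the membrane attack complex. Most plasma components are made in the liver, whereas C1q and properdin come mainly from myeloid cells.

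Each value is a probe set's signal divided by its NoDox average. A value of 1 is that average, and the 2 NoDox values of a probe set mirror each other around it. Over all probe sets the Dox arrays had median ratios of 0.955, 0.952 and 0.925. Fold changes are log2 differences, Dox minus NoDox, ± SE from limma, adjusted over the 18191 genes tested by Benjamini-Hochberg, and a gene passed at adjusted p under 0.05. Over all genes 246 were higher (1.35%) and 210 lower (1.15%) in Dox. Centring the arrays on their medians made the split 286 to 137, and it was 312 to 112 with quantile normalization of signals recovered from the ratios. The squamous keratins Krt4, Krt13, Krt5 and Krt14, which mark esophageal epithelium, were among the brightest probe sets, at or above the 98th percentile of signal. Their log2 fold changes were -0.03 ± 0.14 for Krt4, 0.00 ± 0.14 for Krt13, 0.02 ± 0.16 for Krt5 and 0.56 ± 0.20 for Krt14, and Krt15 and Trp63 had -0.41 ± 0.17 and -0.34 ± 0.13. None of these 6 passed in limma, with Krt14 higher and Krt15 and Trp63 lower at unadjusted p under 0.05. The number of arrays limits the precision. In bulk tissue fewer or more cells of a type and less or more RNA per cell cannot be told apart.

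In Dox, 3 complement genes rose and 0 fell. They were Cfp (properdin, which stabilises the alternative C3 convertase), 3.12-fold, Fcna (ficolin A, a sugar-binding starter of the lectin pathway), 2.58-fold, and C1ra (a serine protease of the C1 complex), 1.68-fold. Against the 3 of 30 members higher stands the 1.35% of all genes tested, and against the 0 of 30 lower the 1.15%. At unadjusted p under 0.05 in limma 13 members were higher and 3 lower, beside 6.83% and 10.4% of all genes. The 3 Dox arrays lay above both NoDox arrays in 14 members and below both in 4, beside 13.7% and 21.8% of all genes. The median log2 fold change was 0.41 over the 30 members and -0.08 over all genes, and 21 members were above 0, beside 42.5% of all genes. In the fit on 45034 probe sets 3 of the 54 member probe sets were higher and 0 lower (21 and 8 at unadjusted p under 0.05), beside 0.568% and 0.486% of all probe sets, and the 3 were those of the same 3 genes.

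**Figure D1:**
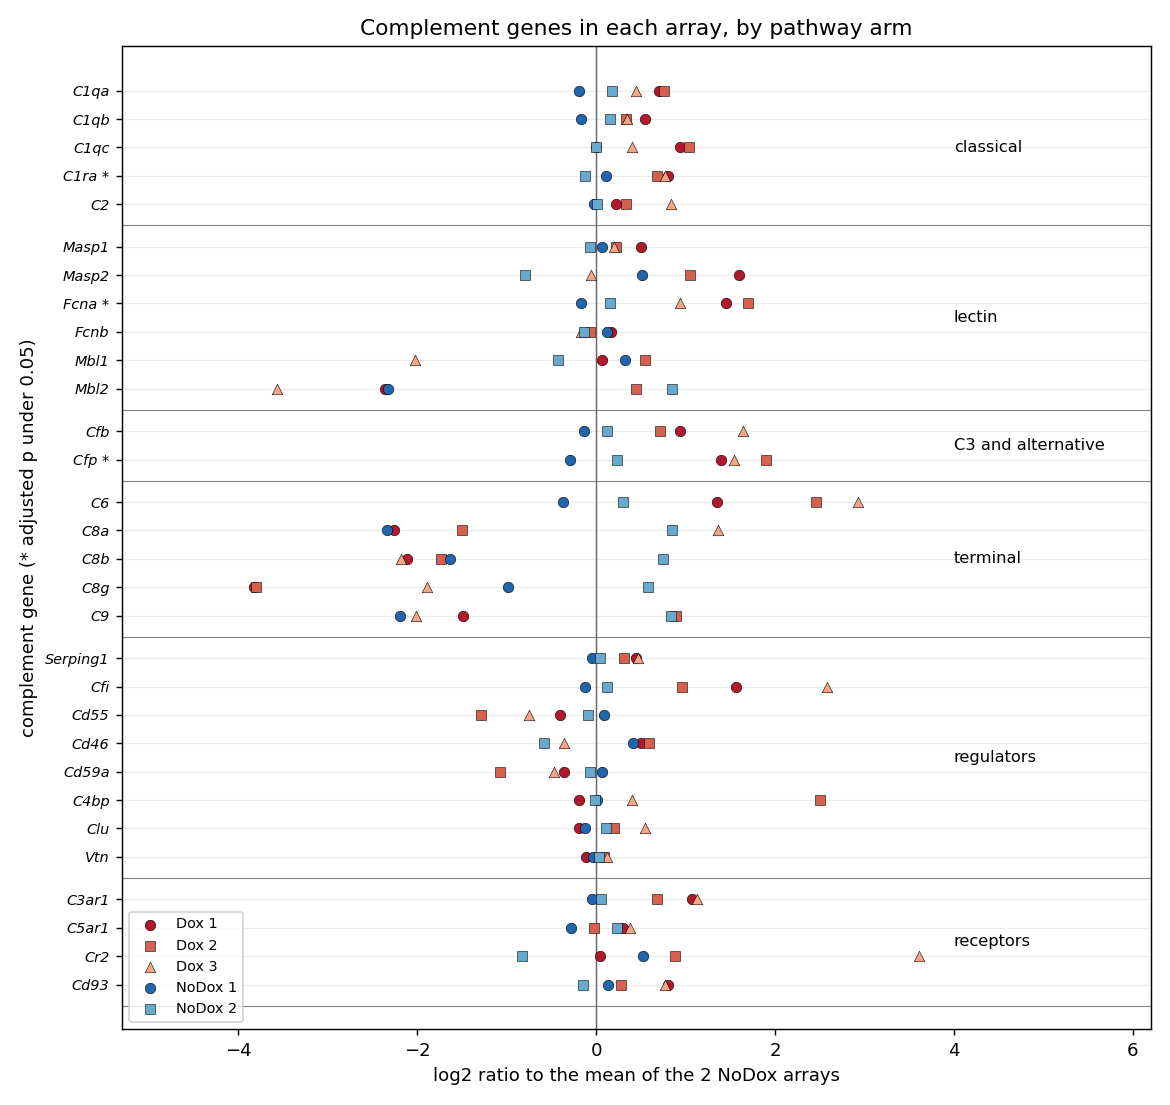
Log2 ratio to the NoDox mean of the 30 measured complement genes, 1 row per gene grouped by pathway arm, with 1 symbol per array (n = 3 Dox in reds, n = 2 NoDox in blues) and an asterisk for adjusted p under 0.05. The Dox symbols of Cfp, Fcna and C1ra lie right of both NoDox symbols, and Cr2 has 1 far Dox symbol. The terminal genes C8a, C8g and C9 spread widely in both groups, and C8b in NoDox only.

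These calls rest on how the spread is modelled and on single arrays. With no trend of the spread with signal level, 0 members passed in limma, the adjusted p of Cfp, Fcna and C1ra becoming 0.168, 0.222 and 0.222, although 10 members were higher at unadjusted p under 0.05. Cfp lost its call without NoDox array 1 (adjusted p = 0.135), and Fcna without NoDox array 1 (0.211) or 2 (0.117). C1ra lost it without Dox array 1 (0.0612), Dox array 3 (0.111), NoDox array 1 (0.162) or NoDox array 2 (0.277). The members higher numbered 7 without Dox array 2, 3 without Dox array 3, 2 without Dox array 1 and 1 without NoDox array 2. Without NoDox array 1 they numbered 0 in limma, with 9 at unadjusted p under 0.05.

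The promoter windows of the 3 risen genes are shown because they are the members past the threshold. They are 300-base RefSeq windows of build GRCm38.p6, from 250 bases before to 50 after an annotated start, with matches to any of 3 searched motifs in capitals.
C1ra (chr6:124512371-124512670, plus strand): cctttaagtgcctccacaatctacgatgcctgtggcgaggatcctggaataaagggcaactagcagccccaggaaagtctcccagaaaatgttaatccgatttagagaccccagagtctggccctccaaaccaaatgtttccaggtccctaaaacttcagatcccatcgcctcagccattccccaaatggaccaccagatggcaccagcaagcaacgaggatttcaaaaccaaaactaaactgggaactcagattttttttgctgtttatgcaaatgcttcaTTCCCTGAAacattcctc
Fcna (chr2:25627925-25628224, minus strand): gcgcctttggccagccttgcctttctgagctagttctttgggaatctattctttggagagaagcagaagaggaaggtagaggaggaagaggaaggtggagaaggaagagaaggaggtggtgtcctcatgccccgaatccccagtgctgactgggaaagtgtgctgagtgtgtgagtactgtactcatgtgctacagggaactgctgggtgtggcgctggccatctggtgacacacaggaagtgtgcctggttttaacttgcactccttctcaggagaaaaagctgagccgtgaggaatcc
Cfp (chrX:20931506-20931805, minus strand): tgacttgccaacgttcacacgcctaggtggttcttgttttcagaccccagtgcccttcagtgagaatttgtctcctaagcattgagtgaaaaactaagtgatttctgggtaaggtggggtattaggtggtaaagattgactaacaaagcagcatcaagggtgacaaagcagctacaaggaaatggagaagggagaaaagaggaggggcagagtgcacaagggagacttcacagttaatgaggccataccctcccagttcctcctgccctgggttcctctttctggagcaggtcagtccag
The Fcna window lies at a start inside the annotated gene. Windows were given for 25 of the 34 listed genes, 26 windows in all, and both strands were searched. The letters TTCNNNNGAA, the spacing known for STAT6, the factor activated by IL-13, occurred in 1 of the 26, that of C8b, and in 6.95% of all 32851 windows. TTCNNNGAA, the spacing of other STAT factors, occurred in 5, those of C1ra, C7, C8a, Masp2 and Vtn, beside 8.3% of all windows. In C1ra this match begins 32 bases after the start. The interferon-type letters GAAANNGAAA occurred in 3, those of Cd46, Cd59a and Vtn, beside 3.44%. Of the 3 windows printed, those of Fcna and Cfp hold none of these letters.

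The classical arm had 5 measured genes, and 1 of them, C1ra, passed the test. All 5 had the 3 Dox arrays above both NoDox arrays, beside 13.7% of all genes. C1ra (probe set 1417009_at) had ratios of 1.75, 1.60 and 1.70 in the Dox arrays and 1.08 and 0.919 in the NoDox arrays. Its Dox values lay close together and clear of the NoDox pair, giving 0.75 ± 0.14 (adjusted p = 0.0266). A near-identical copy, C1rb, shares another probe set of this array with it, so signals of both transcripts may not be separate here.

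C1qa, C1qb and C1qc encode the 3 chains of the C1q recognition molecule, and the 3 genes are neighbours on chromosome 4. C1qc had ratios of 1.91, 2.05 and 1.32 in Dox and 1.0 and 0.996 in NoDox, a log2 fold change of 0.79 ± 0.19 (adjusted p = 0.0729). C1qa had 1.63, 1.69 and 1.36 against 0.873 and 1.13, or 0.65 ± 0.16 (adjusted p = 0.0821). For C1qb the probe set of highest signal gave 1.46, 1.26 and 1.27 against 0.887 and 1.11, or 0.42 ± 0.15 (adjusted p = 0.207). Its other 2 probe sets gave 0.65 and 0.84, with adjusted p of 0.0799 and 0.0518 in the fit on probe sets. None of the 5 C1q probe sets thus passed, and in all 5 the lowest Dox value exceeded the higher NoDox value. Dox array 3 was the lowest Dox array in C1qa and C1qc and the highest in 1 probe set of C1qb. C1qc was 0.98 without Dox array 3, past the threshold (adjusted p = 0.0354), and 0.67 without Dox array 2 (adjusted p = 0.0837). Its adjusted p reached 0.388 without NoDox array 2.

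C2, the protease that forms the classical C3 convertase with C4b, had ratios of 1.17, 1.26 and 1.78 in Dox and 0.987 and 1.01 in NoDox. Dox array 3 was the highest and the groups did not overlap, but the difference of 0.46 ± 0.20 did not pass (adjusted p = 0.278). Its 3 probe sets ranged from 0.46 to 0.74.

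In the lectin arm 1 of 6 genes, Fcna, rose, and the rest gave values on both sides of 0. Fcna (probe set 1418243_at) had ratios of 2.73, 3.25 and 1.91 in Dox and 0.886 and 1.11 in NoDox. Every Dox array was well above the NoDox pair, with array 3 the lowest, and the log2 fold change was 1.37 ± 0.22 (adjusted p = 0.0157). Its relative Fcnb, a ficolin known from neutrophils and bone marrow, had 1.12, 0.950 and 0.891 against 1.09 and 0.911. The Fcnb groups overlapped, and its 95% interval ran from -0.69 to 0.66 on the log2 scale.

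Masp1, which encodes the lectin-pathway protease MASP-1 and its splice forms, was read by 5 probe sets that disagreed. Its brightest probe set had ratios of 1.42, 1.17 and 1.15 in Dox and 1.05 and 0.954 in NoDox, or 0.31 ± 0.21 (adjusted p = 0.489). The 5 sets ranged from -0.92 to 0.80, and the sets at both ends separated the groups, in opposite directions, at unadjusted p of 0.00831 and 0.0103 in limma. Neither passed over all probe sets (adjusted p = 0.178 and 0.195). Which transcripts these probe sets read was not analysed here.

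Masp2, the C4- and C2-cleaving protease, also gave opposite signs, 1.01 and -2.84, from 2 dim probe sets at the 26th and 14th percentiles of signal. The collectin genes Mbl1 and Mbl2, mannose-binding lectins made in the liver, stood at -0.42 ± 0.76 and -1.09 ± 1.34, and their groups overlapped. Mbl2 lay at the 15th percentile of signal, and its NoDox arrays alone differed from 0.199 to 1.80.

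The measured genes of the alternative arm were Cfp and Cfb, and Cfp rose. Cfp (probe set 1452279_at) had ratios of 2.64, 3.74 and 2.92 in Dox and 0.818 and 1.18 in NoDox. Every Dox array stood clear of the higher NoDox array, and the log2 fold change was 1.64 ± 0.22 (adjusted p = 0.00683), the smallest adjusted p of the 30 members. A further, somewhat dimmer Cfp probe set did not separate the groups, with 1.19, 1.03 and 1.5 in Dox and 0.949 and 1.05 in NoDox. Its log2 fold change was 0.29 ± 0.23 (adjusted p = 0.627 over all probe sets), so the size of the rise depends on the probe set, and with the mean of both the log2 fold change of Cfp was 0.97.

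Cfb, factor B, supplies the protease of the alternative C3 convertase. It had ratios of 1.91, 1.64 and 3.12 in Dox and 0.912 and 1.09 in NoDox. All Dox arrays were above both NoDox arrays, with array 3 the highest, and the difference of 1.10 ± 0.27 did not pass (adjusted p = 0.0776). It was 1.29 without Dox array 2, past the threshold (adjusted p = 0.0308), and 0.83 without Dox array 3 (adjusted p = 0.148). Over the alternatives its adjusted p ran from 0.0276 to 0.433.

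No gene of the terminal arm passed in limma. At unadjusted p under 0.05 in limma 1 of the 5 was higher and 1 lower, beside 6.83% and 10.4% of all genes. C6, a building block of the membrane attack complex, had a log2 fold change of 2.28 ± 0.61 (adjusted p = 0.0964) at the 34th percentile of signal. With an offset of 64 signal units it was 1.52, near the 1.55 of Cfp and the 1.54 of Cfi under that offset. Its ratios were 2.55, 5.49 and 7.60 in Dox and 0.772 and 1.23 in NoDox, so the groups were apart while the Dox arrays also varied widely among themselves. C8g, the gamma chain of C8, had 0.0704, 0.0716 and 0.269 in Dox and 0.506 and 1.49 in NoDox. Its log2 fold change was -2.97 ± 0.92 (adjusted p = 0.142), at the 17th percentile of signal. With an offset of 64 signal units it was -1.45, and with 1 array left out it ran from -3.75 to -2.19.

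C8a, C8b and C9, which also encode parts of the membrane attack complex, lay at the 6th, 11th and 23rd percentiles of signal. The NoDox pair of C8a read 0.197 and 1.80, that of C8b 0.321 and 1.68 and that of C9 0.218 and 1.78. C8b was lower in every Dox array than in either NoDox array, and C8a and C9 overlapped. Their log2 fold changes of -0.05 ± 1.39, -1.56 ± 0.96 and -0.19 ± 1.12 are within these spreads. A change in C8a, C8b or C9 was not detectable at this signal.

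Among the 8 measured regulators 0 passed in limma. At unadjusted p under 0.05 in limma 2 were higher and 2 lower, beside 6.83% and 10.4% of all genes. Cfi, factor I, which cleaves C3b and C4b, had ratios of 2.95, 1.94 and 6.01 in Dox and 0.914 and 1.09 in NoDox. Its Dox arrays were all above NoDox but varied among themselves, at 1.71 ± 0.42 (adjusted p = 0.0745), and the value moved with single arrays. It was 2.08 without Dox array 2, past the threshold (adjusted p = 0.0162), and 1.26 without Dox array 3 (adjusted p = 0.119), within a range of 0.0162 to 0.399 for the adjusted p over the alternatives. Serping1, the C1 inhibitor, had 1.36, 1.24 and 1.38 against 0.966 and 1.03, a small and even difference of 0.41 ± 0.13 (adjusted p = 0.156).

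Cd55, decay-accelerating factor, takes C3 convertases apart on the cell membrane. It had ratios of 0.758, 0.411 and 0.595 in Dox and 1.06 and 0.938 in NoDox, or -0.81 ± 0.24 (adjusted p = 0.123). All 3 of its probe sets gave values below 0, from -0.81 to -0.46, and in each the Dox arrays lay below both NoDox arrays, with Dox array 2 the lowest. Cd59a, which blocks the membrane attack complex, had 0.780, 0.475 and 0.723 against 1.05 and 0.954, or -0.63 ± 0.21 (adjusted p = 0.169). Its other probe set gave -0.54 ± 0.15 (adjusted p = 0.158 over all probe sets), again with Dox array 2 the lowest.

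The other 4 regulators overlapped between the groups. Cd46, a membrane cofactor for factor I that mice express mainly in testis, had 0.33 ± 0.49. Clu, clusterin, an inhibitor of the terminal complex, had 0.19 ± 0.21 and -0.11 to 0.28 over its 4 probe sets. Vtn, vitronectin, another inhibitor of that complex, had 0.03 ± 0.20 with a 95% interval from -0.41 to 0.48. C4bp, the C4b-binding protein, lay at the 7th percentile of signal and had 0.875, 5.65 and 1.32 in Dox, its mean resting on array 2.

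Of the 4 receptors 0 passed in limma. At unadjusted p under 0.05 in limma 2 were higher and 0 lower, beside 6.83% and 10.4% of all genes. C3ar1, the receptor of the anaphylatoxin cut from C3, came closest to the threshold among members that missed it, at 0.96 ± 0.22 (adjusted p = 0.0578). Its ratios were 2.10, 1.60 and 2.19 in Dox and 0.965 and 1.04 in NoDox. All 3 of its probe sets separated the groups and gave 0.96, 1.09 and 1.01, with adjusted p of 0.0813, 0.0779 and 0.0800 over all probe sets. With the mean of the 3 probe sets C3ar1 passed, at 1.02 (adjusted p = 0.0357). Over the alternatives its adjusted p ran from 0.0201 without Dox array 2 to 0.374 with quantile normalization of the ratios. C5ar1, the receptor of the C5 anaphylatoxin, had 1.23, 0.983 and 1.30 against 0.823 and 1.18. In its brighter probe set, which gave these ratios, the groups overlapped, at 0.24. In its dimmer probe set the Dox arrays lay below both NoDox arrays, at -0.65 (adjusted p = 0.676 over all probe sets).

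Cd93, a C1q-related receptor of endothelium and myeloid cells, had ratios of 1.74, 1.21 and 1.70 in Dox and 1.10 and 0.905 in NoDox, or 0.62 ± 0.19 (adjusted p = 0.132). Of its 5 probe sets the 2 brightest separated the groups, at 0.62 and 0.48, and the 3 dimmer ones overlapped, at 0.14, 0.17 and -1.27. The mean of the 5 gave 0.03 (adjusted p = 0.979), and leaving out Dox array 2 gave 0.79, past the threshold (adjusted p = 0.0184), these being the ends of the range over the alternatives. The endothelial marker list had 0 of 6 genes past the threshold in limma (1 higher at unadjusted p under 0.05) and a median of 0.04.

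**Figure D2:**
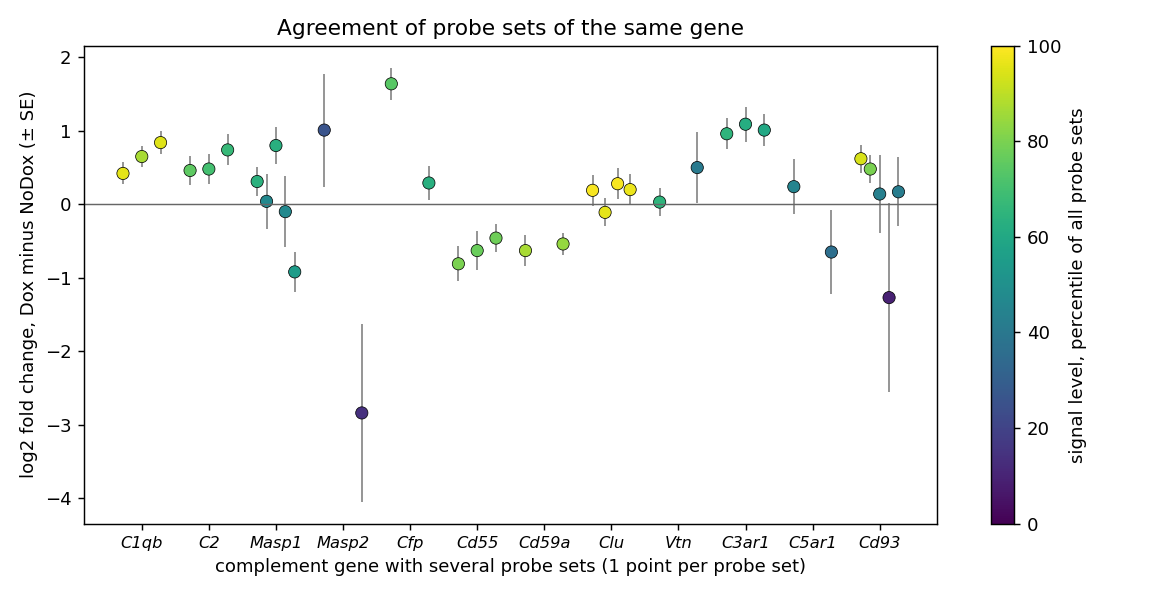
Log2 fold change, Dox minus NoDox, ± SE of every probe set of the 12 complement genes with several probe sets, from the fit on all probe sets, coloured by the percentile of signal level. The sets of C1qb, C2, Cd55, Cd59a and C3ar1 lie on one side of 0, and those of Masp1, Masp2, C5ar1, Clu and Cd93 on both.

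Of the 12 genes with several probe sets, 7 had all of them on one side of 0. These were C1qb, C2, Cfp, Vtn and C3ar1 above 0 and Cd55 and Cd59a below. The 5 others were Masp1, Masp2, Clu, C5ar1 and Cd93. The probe sets that went against the brightest one were dim in some of these genes and not in others. They lay at the 14th percentile of signal for Masp2, the 36th for C5ar1 and the 9th for Cd93, at the 47th and 55th for Masp1, and at the 96th for Clu. The Clu probe sets had no recovered level. Their percentiles rest on lower bounds, and which of them is brightest is not settled.

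Cr2, complement receptor 2 of B cells and follicular dendritic cells, was high in a single array. Its ratios were 1.03, 1.85 and 12.2 in Dox and 1.44 and 0.562 in NoDox, so only Dox array 3 stood above both NoDox arrays by a wide margin. The log2 fold change was 1.66 ± 0.94 (adjusted p = 0.420), and 0.62 without Dox array 3. Of 5 measured markers of B cells and follicular dendritic cells 0 passed in limma and 2 were higher at unadjusted p under 0.05. On the log2 scale their median was 0.67, 0.44 and 3.86 in Dox arrays 1, 2 and 3 and 0.12 and -0.13 in NoDox. Ms4a1, the CD20 gene, had ratios of 1.19, 1.36 and 14.5 in Dox, and Cd79b, a B cell receptor chain, 2.70, 2.15 and 22.4. The summed recovered signal of the 5 markers was 4163, 3114 and 20489 in Dox and 2991 and 2409 in NoDox. Their part in the Cr2 value was not tested.

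**Figure D3:**
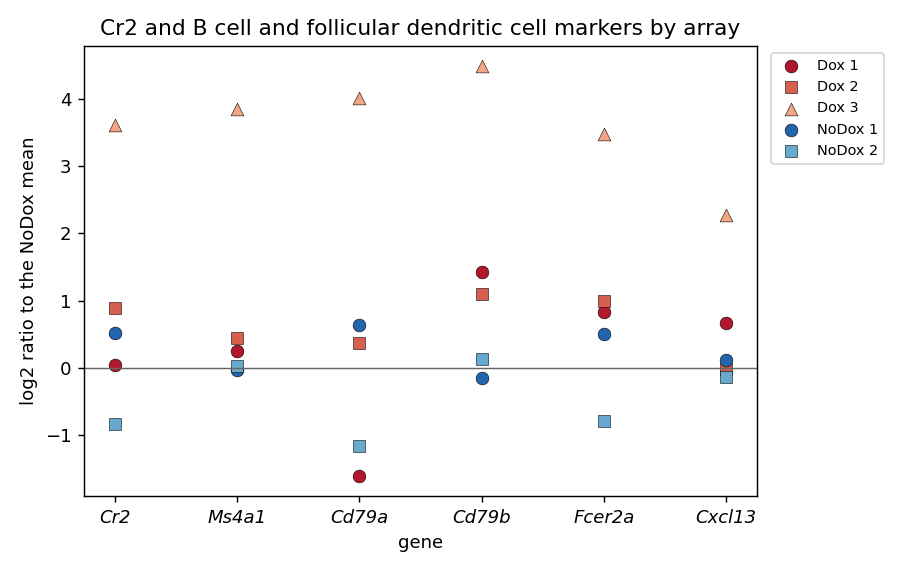
Log2 ratio to the NoDox mean of Cr2 and of 5 markers of B cells and follicular dendritic cells, with 1 symbol per array (n = 3 Dox in reds, n = 2 NoDox in blues). Dox array 3 is the highest array for each of the 6 genes.

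Markers of macrophages, cells that make C1q and properdin and carry C3ar1, were also higher in Dox. Of 9 measured macrophage genes 4 rose and 0 fell in limma (8 and 0 at unadjusted p under 0.05), with a median of 0.80. All 9 had the Dox arrays above both NoDox arrays, beside 13.7% of all genes. Cd68, a lysosomal glycoprotein, had ratios of 3.17, 2.51 and 3.10 in Dox, and the adaptor Tyrobp 2.79, 2.24 and 2.95. Csf1r, the receptor of the macrophage growth factor, was at 0.80 ± 0.14 (adjusted p = 0.0209), and Adgre1, the F4/80 antigen, at 0.97 ± 0.17 (adjusted p = 0.0247). The list had median log2 ratios of 0.88, 0.72 and 0.95 in the Dox arrays and -0.01 and 0.01 in NoDox. The summed recovered signal, known for 7 of the 9, was 20364 to 24335 in Dox and 12118 to 12347 in NoDox. The order of the Dox arrays differed among the macrophage genes and among the members. Dox array 2 was the lowest for the list median and for Cd68, Tyrobp, Csf1r, Lyz2, Mrc1 and Fcer1g. Among the members it was the lowest for C1ra, all 3 probe sets of C1qb and the brightest probe set of C3ar1. Dox array 3 was the lowest for Adgre1 (2.33, 1.93 and 1.65) and Cd163 (1.53, 1.28 and 1.17). Dox array 1 was the lowest for Cd14 (1.30, 1.70 and 1.99). Dox array 2 was the highest for Cfp, Fcna, C1qa and C1qc. Among complement genes outside the list, it was the highest for Itgam (2.33, 3.08 and 1.06) and Vsig4 (1.68, 2.59 and 1.21) and the lowest for Itgb2 and Itgax. The part of macrophage RNA in the values of C1q, Cfp, Fcna and C3ar1 was not tested.

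Markers of lung also rose in the same arrays. Of 7 genes of alveoli and airway 4 rose, with a median of 2.18 and summed recovered signal of 14687 to 39291 in Dox and 4175 to 4827 in NoDox over the 5 with a level. Sftpa1, a surfactant protein gene, had ratios of 7.41, 4.74 and 14.3 in the Dox arrays. Of 5 measured genes on the neutrophil list 2 rose, S100a8 at 3.42 ± 0.28 and S100a9 at 1.13 ± 0.17. The other 3 did not pass in limma. Csf3r had 1.84 ± 0.55 with the groups apart (adjusted p = 0.128). Mpo and Cxcr2 overlapped between the groups, at 1.17 ± 0.74 and -0.19 ± 0.56. The part of lung or neutrophil RNA in the complement values was not tested.

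Other marker lists held 0 genes past the threshold in limma. The 7 measured genes of liver, the tissue that makes most plasma complement, had a median of -0.77 (1 higher and 1 lower at unadjusted p under 0.05). Of these genes 6 were below 0 and only 1, Hp, was above. In 4 of them the Dox arrays lay below both NoDox arrays, beside 21.8% of all genes. Hp, haptoglobin, the brightest of them at the 83rd percentile of signal, had 0.98 ± 0.30 (adjusted p = 0.134), with the Dox arrays above both NoDox arrays. Alb, albumin, at the 47th percentile, had -1.88 ± 0.56 (adjusted p = 0.129), with the Dox arrays below both. Medians were -0.13 for 6 fibroblast genes, -0.50 for 6 adipocyte genes, -0.49 for 4 smooth muscle genes and -0.08 for 8 squamous genes. At unadjusted p under 0.05 these lists held 1, 3, 2 and 2 lower genes, and 0, 0, 0 and 1 higher ones.

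**Figure D4:**
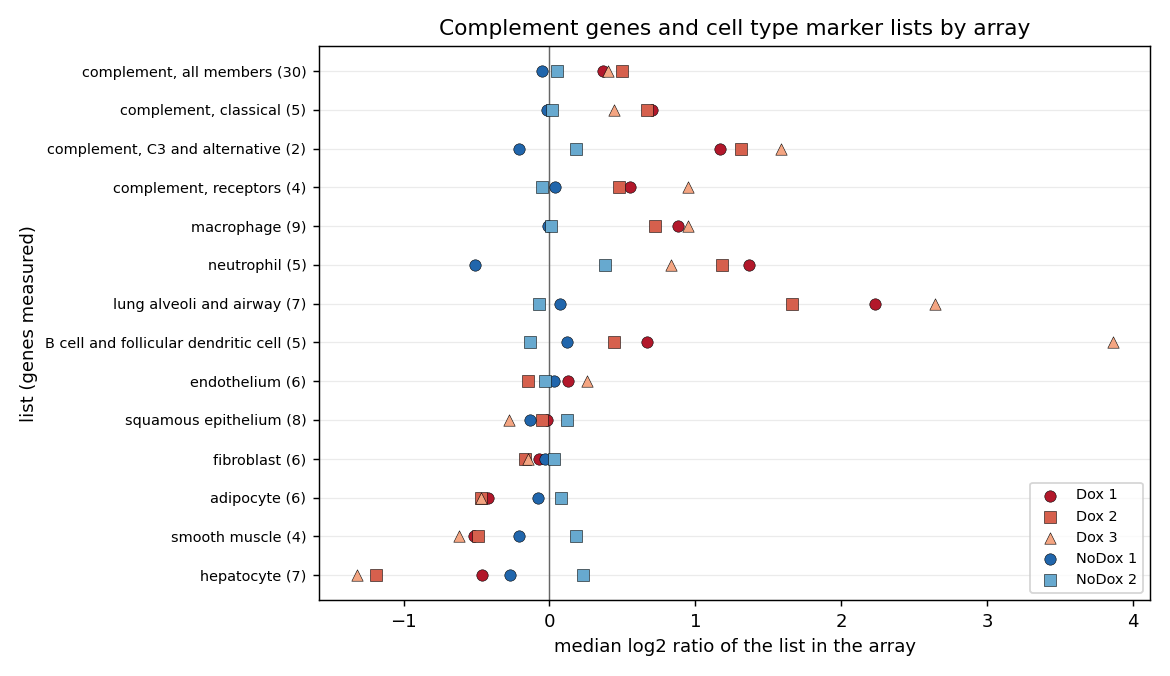
Median log2 ratio to the NoDox mean in each array (n = 3 Dox in reds, n = 2 NoDox in blues). Rows are all complement members, the classical, C3 and alternative, and receptor arms, and cell type marker lists, with genes measured in brackets. The lectin, terminal and regulator arms are not shown. In Dox arrays 1, 2 and 3 the lectin medians were 0.34, 0.50 and -0.11, against 0.09 and -0.10 in NoDox. The terminal ones were -2.11, -1.50 and -1.89 in Dox and -1.64 and 0.75 in NoDox. Those of the regulators were -0.15, 0.26 and 0.26 in Dox and -0.01 and 0.01 in NoDox. In each of these arms the groups overlapped. The medians of all members, macrophage, neutrophil and lung lists lie right of NoDox in all 3 Dox arrays, and the B cell list is far right in Dox array 3.

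Of 29 further complement genes outside the list, 21 were measured, and 2 rose and 0 fell (5 and 0 at unadjusted p under 0.05), with a median of 0.41. Both encode chains of the phagocytic complement receptors. Itgb2, the shared beta chain of complement receptors 3 and 4, had ratios of 4.06, 3.61 and 4.16 in Dox and 1.02 and 0.981 in NoDox, or 1.98 ± 0.13 (adjusted p = 0.000148). Itgax, the alpha chain of receptor 4, had 3.78, 2.67 and 6.69 against 1.01 and 0.994, or 2.03 ± 0.36 (adjusted p = 0.0239). Itgam, the alpha chain of receptor 3, did not pass. It had 2.33, 3.08 and 1.06 against 1.17 and 0.832, with overlapping groups, or 0.99 ± 0.44 (adjusted p = 0.294). Hc, the gene of C5, was named after its values were seen. It had ratios of 10.6, 3.26 and 12.7 in Dox and 1.49 and 0.507 in NoDox, or 3.13 ± 0.68, which missed the threshold (adjusted p = 0.0502).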

How the data were processed

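Total RNA of 5 esophagus samples, 3 Dox and 2 NoDox by their titles, was measured on Affymetrix Mouse Genome 430 2.0 chips. Per the labels' protocols, the authors made signals with Microarray Suite 5.0 and normalized them in GeneSpring 7.3.1 to unstimulated controls. The deposited values are linear ratios. In 45099 of 45101 probe sets the NoDox pair sums to 2 within 0.0001, so each is a signal over the NoDox mean of that probe set, not a pair-wise control as the labels say.

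Signal levels were recovered from the ratios. The most frequent ratio between 2 arrays gave each array's scale, and whole signal steps up to 50000 that fit all 5 values within a relative 3e-07, at most 0.01 expected by chance, were searched. A level was found for 40657 of 45098 probe sets (90.2%), and for 28 of 4000 shuffled ones (0.7%). In simulated probe sets 96.2% of the levels found were exact, and 99.92% exact or a whole divisor. Probe sets without a level took a lower bound. Summed signals are in units of 10 steps.

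Log2 ratios, with no offset or filter, were fitted with limma 3.58.1 in R 4.3.3 (eBayes with a trend on the recovered level, two-sided, Benjamini-Hochberg). The brightest probe set stood for each of 18191 genes. A fit on 45034 probe sets left out 64 controls and 3 sets with a value at 0.01. With 3 and 2 arrays the smallest p an exact permutation test allows is 0.1, so none was used. The fit was tested on simulated data before use. Alternatives changed the scaling, an offset of 16 or 64 signal units, the filter on low levels, the probe set of a gene, the model of the spread, the threshold and the arrays used.

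Named genes are all measured members, with values per array for members past the threshold and for the 2 of smallest p in each arm, then the listed markers and other complement genes past the threshold. Cd14, Cd163, Fcer1g, Lyz2, Mrc1, Csf3r, Mpo, Cxcr2, Itgam and Vsig4 were named after their values were seen. The members and lists were chosen with earlier results of these data known. Gene symbols came from the platform annotation (34945 probe sets with 1 symbol, 932 with several, 9160 with none). Tables and plots used Python 3.11.15, pandas 2.3.3 and matplotlib 3.10.9.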

Additional observations from a re-analysis of the deposited data

How the results depend on the processing

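Calls were recomputed under 19 alternatives, 1 of them, quantile normalization of the recovered signals, chosen after seeing the data. Of 564 values of member genes under these, 493 kept direction and side of the threshold, 18 lost a call, 28 gained one and 25 changed sign, none of the last a called gene. Cfp kept its call in 15 of the 19, Fcna in 13 and C1ra in 11. In all genes, 246 higher and 210 lower became 58 and 12 with quantile normalization of the ratios, whose NoDox values are narrow by construction, 6 and 0 with no trend (limma, 1161 and 1255 at unadjusted p under 0.05), 0 and 0 with a trend on the mean log2 ratio (1222 and 1148), 434 and 479 with array weights, 85 and 42 at adjusted p under 0.01, and 445 and 474 under 0.10. Lower genes alone moved to 137 with median centring, 118 with the probe set of highest mean ratio and 112 with quantile normalization of signals. Member genes higher, 3 in the reported fit, were 5 with median centring and with quantile normalization of signals, 0 with quantile normalization of ratios, with no trend and with a trend on the mean log2 ratio (limma, 11, 10 and 11 at unadjusted p under 0.05), 8 with array weights, 1 at adjusted p under 0.01 and 9 under 0.10. Member probe sets higher, also 3, were 5 with quantile normalization of signals, 0 in the same 3 fits and at adjusted p under 0.01 (18, 15, 15 and 21 at unadjusted p under 0.05), 9 with array weights and 8 under 0.10. Over the fits that leave out 1 array the counts ran from 45 to 372 and 10 to 463 for all genes, 0 to 7 and 0 to 0 for member genes, and 0 to 7 and 0 to 0 for member probe sets.

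Replicate numbers shared by Dox and NoDox gave deviations that correlated at 0.01 and 0.02 over all probe sets. No pairing was seen, but the 2 NoDox values mirror each other, so this check cannot exclude one. With the replicate block, in which Dox array 3 is alone, all genes lower numbered 368, member genes 6 higher and 2 lower (Cd55 and Cd59a), and member probe sets 7 higher. C9 then stood at 0.39, Fcnb at 0.05, Mbl1 at 0.36 and Vtn at -0.01.

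The sign of other uncalled members turned as follows. With median centring C8a was 0.03 and Fcnb 0.06, with quantile normalization of ratios Fcnb was 0.05, with array weights C8a was 0.22, and with the mean of probe sets C5ar1 was -0.20 and Masp2 -0.92. With 1 array left out C5ar1 ran from -0.02 to 0.50, C8a from -1.65 to 1.55, C9 from -1.70 to 1.33, Cd46 from -0.17 to 0.83, Fcnb from -0.15 to 0.11, Mbl1 from -0.93 to 0.36, Mbl2 from -2.68 to 0.50 and Vtn from -0.01 to 0.10. The cause of these changes was not tested. Signal limits 6 of the 30 members, which lie at or below the 23rd percentile of levels.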
